A study of Mus musculus with 4 samples.

Results

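The 55 genes described here encode homeodomain transcription factors that lie outside the Hox clusters. They were taken as a list of gene names, with no peak value in the rule: 10 LIM genes (Lhx and Isl), 7 NK genes (Nkx), 14 NK-like genes (Dlx, Msx, Emx, Tlx and Hhex), 5 SINE genes (Six2 to Six6), 11 TALE genes (Irx, Meis and Pbx), 4 paired-like genes (Otx1, Otx2, Gsc and Pitx1), 3 Cdx genes and Satb1. All 55 were found among the 21887 protein-coding genes of the reference table. Their chromatin was read by ATAC-seq, in which a transposase cuts accessible DNA and the cut sites pile up into peaks. The cells were mouse bone marrow-derived macrophages, exposed for 24 hours to medium conditioned by the liver cancer line Hepa1-6. Ezh2 knockout (KO) cells came from Ezh2 fl/fl; LysM-Cre+/- mice, in which Cre made from the Lyz2 locus removes Ezh2 in myeloid cells, and wild-type (WT) cells came from littermates whose alleles the labels do not list. There were 2 libraries of each genotype. Marrow of both genotypes had been grown for 7 to 10 days in medium that held L929 cell supernatant. The labels do not say that replicates were separate animals or cultures, so the SD and p-values here measure only the spread between these libraries.

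Homeodomain factors bind DNA through a helix-turn-helix fold and set up the body plan, organs and neural cell types in the embryo. Most have no known task in a mature macrophage, and their CpG-rich promoters are textbook targets of Polycomb repressive complex 2, whose catalytic subunit is Ezh2. The complex methylates lysine 27 of histone H3 and keeps such genes silent in tissues that do not need them. A few members are part of blood biology: Meis1 and the Pbx proteins are partners of Hox factors in haematopoietic progenitors, Hhex is needed for blood and liver development, and Satb1 folds chromatin in lymphocytes. The comparison of KO with WT cells asks whether such genes open when the enzyme is lost.

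The deposited lists held 67055 and 71111 peaks in the KO libraries and 69210 and 72887 in the WT libraries, and WT replicate 2 had the longest. The files hold no read counts, so depth is unknown, and a missing peak may mean that a library was too shallow to show it. All 13 macrophage markers, among them Spi1, Csf1r and Adgre1, had a peak within 1 kb of a gene end in each of the 4 libraries, and so did all 13 genes of a list of PRC2 subunits and H3K27 demethylases that includes Ezh2. A peak at an Ezh2 end does not test the deletion. Marker lists of neutrophils, B cells, T and NK cells, fibroblasts and hepatocytes had 1 or 2 genes called in each library. Of 5 progenitor markers, 3 and 4 were called in the KO libraries and 2 and 3 in the WT libraries, and of 4 endothelial markers, 2 and 3 in KO and 1 and 1 in WT. The part of these markers in the results below was not tested. Fewer open cells and weaker opening in each cell cannot be told apart in such bulk libraries.

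Peaks of the 4 libraries that overlapped by at least 1 bp were merged into 91858 regions, and a region counts as called by each library with a peak in it. A gene-end region lies within 1 kb of either annotated end of a gene, and a nearby region lies inside the gene or within 10 kb of it. Most of the homeobox genes lacked a gene-end region. Of the 55, 12 (21.8%) had one in each of the 4 libraries, 12 in 1 to 3 libraries and 31 (56.4%) in none. Over all protein-coding genes the shares were 54.7% for each of the 4 libraries, 6.41% for 1 to 3 libraries and 38.9% for none. The homeobox genes are short, with a median length of 6852 bp against 17169 bp over all genes. Among genes of at most 10 kb, 8 of 35 homeobox genes (22.9%) and 40.5% of all such genes were called at an end in each library. For nearby regions, defined alike, it was 19 of 35 homeobox genes and 56.9% of all such genes. Nearby regions were far more common: 32 of the 55 genes had one in each of the 4 libraries, where the background was 74.9%, and 18 had one in 1 to 3 libraries, where it was 6.25%. None was called nearby by both KO libraries and neither WT library (background 0.224%), and 2, Meis2 and Lhx6, by both WT libraries and neither KO library (background 0.425%), through separate regions in the WT replicates. The 5 genes with no nearby region at all (background 18.8%) were Isl1, a regulator of motor neurons and the embryonic heart, Nkx2-5, a cardiac factor, Six6, an eye factor, Irx1 and Cdx4.

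**Figure D1:**
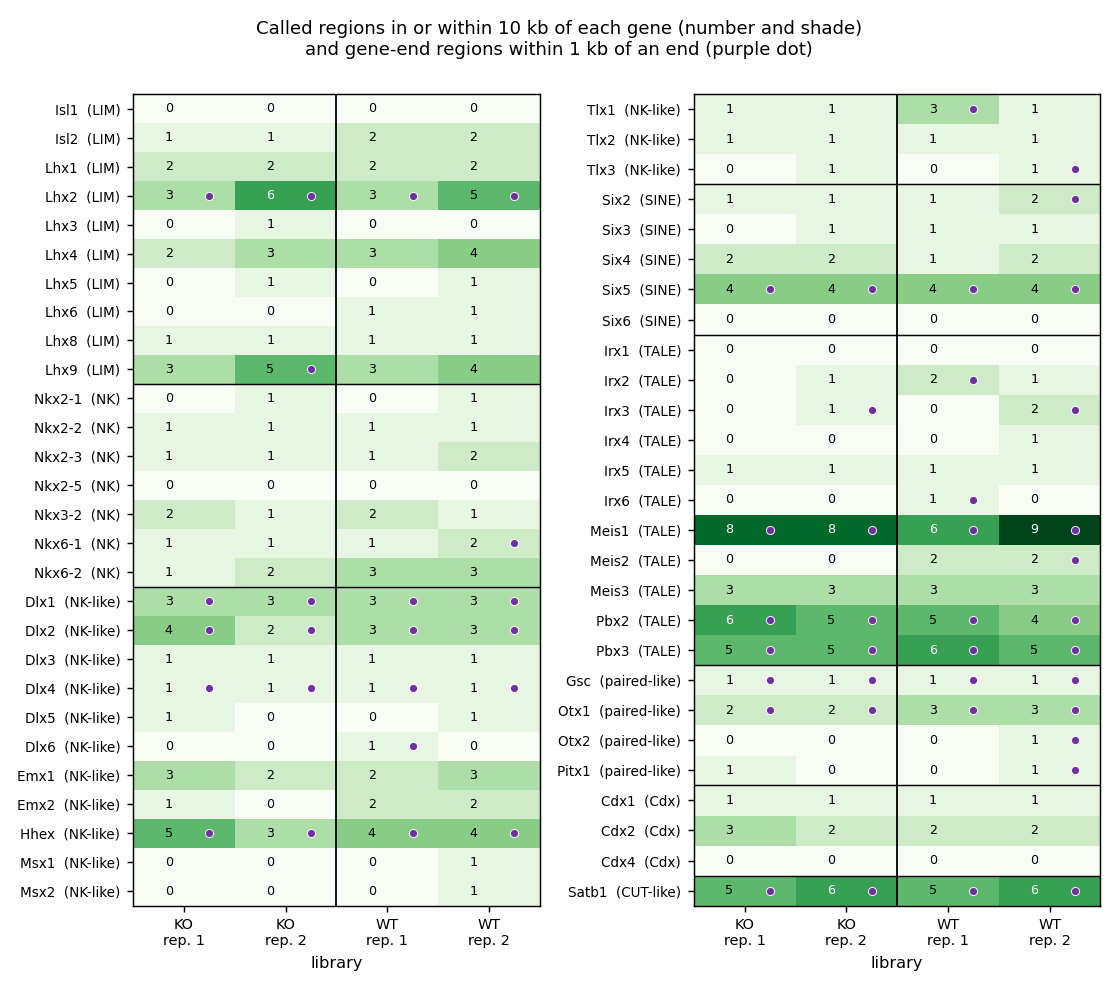
Calls at the 55 homeobox genes in each library. Each cell gives, as a number and a shade, how many called regions lay in the gene or within 10 kb of it in 1 library, and a purple dot marks a library with a gene-end region within 1 kb of an end. Satb1, Hhex, Six5, Meis1, Pbx2, Pbx3, Lhx2, Dlx1, Dlx2, Dlx4, Gsc and Otx1 carry a dot in all 4 columns, and the other dots fall mostly in the WT columns.

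The promoters show the kind of sequence at stake. The windows below run from 250 bases before to 50 bases after an annotated RefSeq start on GRCm38.p6, the assembly behind mm10. They pair genes of 1 class that differ in their calls (Lhx2 with Isl1, Dlx1 with Dlx2) and add Hhex and Meis1, which have the widest gene-end regions. Capitals mark CpG dinucleotides. The windows are chr19:37434591-37434890 (plus strand) for Hhex, chr11:19018920-19019219 (minus) for Meis1, chr2:38339031-38339330 (plus) for Lhx2, chr13:116309639-116309938 (minus) for Isl1, chr2:71529195-71529494 (plus) for Dlx1 and chr2:71546705-71547004 (minus) for Dlx2. Those of Hhex, Meis1, Lhx2 and Dlx1 overlapped a region called in all 4 libraries, and those of Isl1 and Dlx2 overlapped none.
Hhex: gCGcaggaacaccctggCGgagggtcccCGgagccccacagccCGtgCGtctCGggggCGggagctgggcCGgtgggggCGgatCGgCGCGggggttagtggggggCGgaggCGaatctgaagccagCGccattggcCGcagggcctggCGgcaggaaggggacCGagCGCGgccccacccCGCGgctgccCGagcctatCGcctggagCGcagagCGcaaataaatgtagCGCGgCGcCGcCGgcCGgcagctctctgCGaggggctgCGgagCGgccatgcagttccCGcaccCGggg
Meis1: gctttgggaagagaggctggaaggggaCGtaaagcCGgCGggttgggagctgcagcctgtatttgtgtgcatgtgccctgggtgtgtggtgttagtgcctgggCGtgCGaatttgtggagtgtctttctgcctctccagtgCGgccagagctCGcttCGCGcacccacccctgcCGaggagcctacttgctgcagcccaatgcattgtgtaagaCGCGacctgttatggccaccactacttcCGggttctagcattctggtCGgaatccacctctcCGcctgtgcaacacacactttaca
Lhx2: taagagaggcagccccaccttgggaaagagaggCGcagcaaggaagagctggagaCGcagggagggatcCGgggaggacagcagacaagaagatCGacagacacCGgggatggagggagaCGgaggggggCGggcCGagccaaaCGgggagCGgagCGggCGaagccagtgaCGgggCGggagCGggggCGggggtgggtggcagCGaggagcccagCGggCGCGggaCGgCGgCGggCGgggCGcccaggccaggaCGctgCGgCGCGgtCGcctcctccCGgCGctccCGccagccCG
Isl1: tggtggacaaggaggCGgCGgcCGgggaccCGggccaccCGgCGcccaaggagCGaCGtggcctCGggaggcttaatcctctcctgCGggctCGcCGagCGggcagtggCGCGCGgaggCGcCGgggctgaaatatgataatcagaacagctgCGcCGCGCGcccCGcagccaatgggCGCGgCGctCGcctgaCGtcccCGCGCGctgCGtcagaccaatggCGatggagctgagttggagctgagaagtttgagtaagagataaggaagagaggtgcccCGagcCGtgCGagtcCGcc
Dlx1: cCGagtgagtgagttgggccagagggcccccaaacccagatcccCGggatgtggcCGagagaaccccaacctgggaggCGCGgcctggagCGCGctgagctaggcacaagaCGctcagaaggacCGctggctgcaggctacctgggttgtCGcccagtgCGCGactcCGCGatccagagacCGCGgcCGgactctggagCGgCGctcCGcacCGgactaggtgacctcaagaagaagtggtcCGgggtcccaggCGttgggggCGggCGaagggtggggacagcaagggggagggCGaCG
Dlx2: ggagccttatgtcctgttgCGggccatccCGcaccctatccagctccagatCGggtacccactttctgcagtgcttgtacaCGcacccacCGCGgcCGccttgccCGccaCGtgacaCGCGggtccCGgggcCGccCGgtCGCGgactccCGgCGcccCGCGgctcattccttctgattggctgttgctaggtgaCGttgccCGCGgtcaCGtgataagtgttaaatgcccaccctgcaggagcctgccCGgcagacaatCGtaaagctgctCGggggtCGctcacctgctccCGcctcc

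The uncalled Isl1 window holds 37 CpG dinucleotides, as many as the called Hhex window. The Dlx2 window holds 29 and the Dlx1 window 27, while the called Meis1 window has 15. The counts of called and uncalled windows thus overlapped among these 6. RefSeq windows were at hand for 42 of the 55 genes, 54 windows in all. The 10 windows in a region of all 4 libraries had a median of 28 CpG (range 8 to 45), and the 42 windows in no region had a median of 16.5 (3 to 37). Windows of all genes in the table had medians of 22 and 4 in the same 2 classes, so uncalled homeobox promoters held more CpG than uncalled promoters at large. As a description of sequence, TGACAG, the core that Meis and Tgif proteins bind, occurred on either strand in 10 of the 54 windows (18.5%) and in 18.7% of all promoter windows. GAGGAA, a core of PU.1-type ETS sites, occurred in 20 (37.0%) and in 27.4%, and the motifs can share at most 1 letter.

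**Figure D2:**
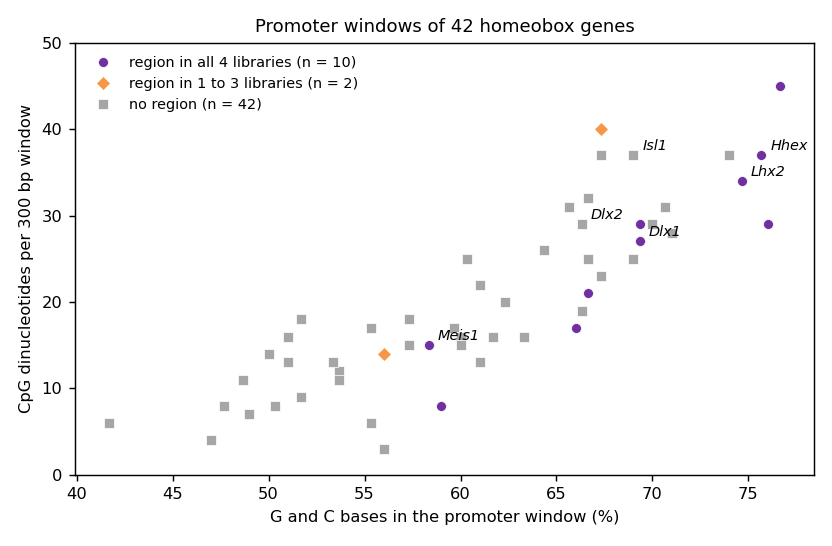
CpG dinucleotides per 300 bp promoter window (vertical axis) against the share of G and C bases in percent (horizontal axis) for 54 RefSeq windows of 42 homeobox genes. Purple circles lie in a region called in all 4 libraries, orange diamonds in a region of 1 to 3 libraries and grey squares in none, and uncalled windows reach 37 CpG.

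Of the 11 TALE genes, all 4 libraries called an end of Meis1, Pbx2 and Pbx3. The Meis1 region (chr11:19018979-19020734) covers the annotated start. Its peaks covered 1242 and 1052 bp in the KO libraries, against 1756 and 1592 bp in the WT libraries. Both KO values lay below both WT values, a difference of -0.54 ± 0.22 (SE) in log2 covered width, which did not pass the test over all shared regions (limma, adjusted p = 0.899). Each KO library had 2 separate peaks in this region and each WT library 1. The fold enrichment of the widest peak was 5.52 and 3.88 in KO and 4.44 and 4.58 in WT, which overlapped. Meis1 was also the member with the most nearby regions: there were 12, and all 4 libraries called 5 of them. The gene is long, at 139224 bp where the median of the 55 was 6852 bp, and the counts are not scaled by length. Pbx3, a Pbx partner of Meis and Hox proteins, had a region 4 bp beyond its higher-coordinate end (chr2:34372049-34373389) that covered 1296 and 1291 bp in KO and 1328 and 1262 bp in WT. Its values overlapped and were nearly equal. Pbx2 covered 733 and 848 bp in KO, against 900 and 893 bp in WT, in a region at its start that also lies at an end of the neighbouring gene Gpsm3 (limma, adjusted p = 0.972). Those groups did not overlap, but the difference was -0.17 ± 0.17 on the log2 scale. Both KO libraries lay below both WT libraries, as at Meis1 and Pbx2, in 16.9% of all regions called in all 4 libraries. Meis3 had no gene-end region, but a region called in all 4 libraries lay inside the gene, 1018 bp from its outermost start, and overlapped a RefSeq promoter window. Meis2 had 4 nearby regions, all from WT libraries and each from a single one.

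Hhex, Satb1 and Six5 had gene-end regions over their starts. At Hhex (chr19:37434271-37436829) peaks covered 2034 and 2011 bp in KO and 2005 and 2549 bp in WT, and the groups overlapped. This was the widest region near any of the 55 genes, at 2559 bp in all. The Satb1 region (chr17:51831823-51833294) covered 771 and 1472 bp in KO and 1186 and 922 bp in WT, so that the KO replicates differed more than the genotypes did. Six5, which adjoins the myotonic dystrophy kinase gene Dmpk, covered 924 and 885 bp in KO and 897 and 913 bp in WT. Its region lies within 1 kb of an end of Dmpk too, and the values were nearly level in all 4 libraries.

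The remaining genes called at an end in every library belong to embryonic patterning. Lhx2, a LIM factor of forebrain, eye and hair follicle, covered 189 and 566 bp in KO and 137 and 207 bp in WT at its start (chr2:38339184-38339845). KO replicate 2 stood apart there, and the groups overlapped. A wider region deep inside Lhx2, 11323 bp from the start, overlapped the gene's other RefSeq promoter window and covered 761 and 772 bp in KO and 776 and 649 bp in WT. Dlx genes act in the limb, face and forebrain, and lie in pairs that face each other. Dlx1 covered 363 and 420 bp in KO and 592 and 420 bp in WT in a region that lay within the gene, 994 bp from the outermost start and over the RefSeq start printed above. Dlx2 was called 131 bp beyond its 3′ end (chr2:71542991-71543277), with 178 and 242 bp in KO and 144 and 281 bp in WT. That region and another lie between the 2 genes and count for both. Dlx2 also had a gene-end region of 109 bp, 713 bp from its start, in KO replicate 1 alone. Pbx3 likewise had one of 191 bp in WT replicate 1 alone. Dlx4 covered 245 and 385 bp in KO and 405 and 368 bp in WT at its higher-coordinate end. Gsc, the organizer gene goosecoid, had its only nearby region 220 bp from its 3′ end and 1207 bp from its start (chr12:104471429-104472029), with 360 and 502 bp in KO and 514 and 485 bp in WT. Otx1, a forebrain and inner ear factor, covered 305 and 422 bp in KO and 548 and 374 bp in WT, 494 bp beyond its lower-coordinate end. At Dlx1, Dlx2, Dlx4, Gsc and Otx1 too the genotypes overlapped. Of the 12 gene-end regions, 7 lay nearest a 5′ end and 2 nearest a 3′ end, and strand was not given for 3.

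**Figure D3:**
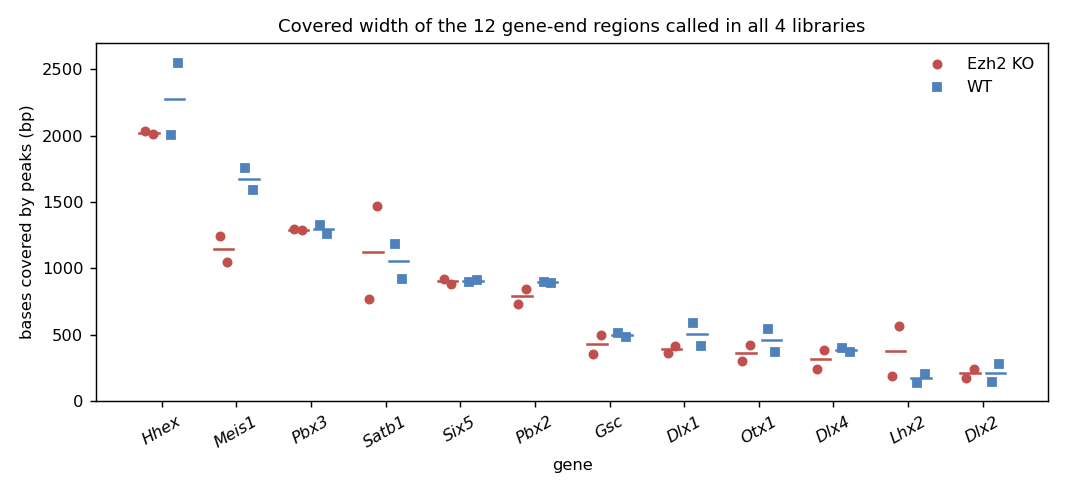
Bases covered by peaks, in bp, at the 12 gene-end regions called in all 4 libraries. Red circles are the 2 KO libraries, blue squares the 2 WT libraries and short lines the means. At 2 of the 12, Meis1 and Pbx2, both KO values lie below both WT values, and none has both above. Over all regions called in all 4 libraries these shares were 16.9% and 16.2%.

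Another 12 members had a gene-end region in some libraries. Of these, Lhx9 was called in KO replicate 2 alone, 10 in WT libraries alone, and Irx3 in KO replicate 2 and WT replicate 2 through separate regions. KO replicate 1 alone called none of the 12. WT replicate 1 alone called Dlx6, Irx2, Irx6 and Tlx1, and WT replicate 2 alone called Meis2, Nkx6-1, Otx2, Pitx1, Six2 and Tlx3. The counts in a single library were thus 0 and 1 for KO and 4 and 6 for WT, where the background shares of all genes were 0.521% and 0.822% for KO and 0.685% and 0.991% for WT. Over all protein-coding genes called at an end in 1 to 3 libraries, 25.6% were called in KO libraries alone and 31.1% in WT libraries alone. No member was called at an end in both libraries of 1 genotype and neither of the other, where the background was 0.297% for KO and 0.315% for WT.

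These partial calls were narrow and weak, as calls of a single library were near genes in general. The strength of a peak is given here as the percentile of its fold enrichment, the authors' value, within its own list. Nearby regions called in 1 library had a median span of 180.5 bp and a median percentile of 8.70 near the homeobox genes, against 156 bp and 10.1 near any gene. Irx2 had the strongest, a peak of 285 bp at percentile 33.2 in WT replicate 1, 74 bp upstream of its start. Nkx6-1, a factor of pancreatic beta cells and motor neurons, had a peak of 338 bp at percentile 21.8 in WT replicate 2, also 74 bp upstream. Six2, which maintains nephron progenitors, had the weakest, 166 bp at percentile 1.87 in WT replicate 2. Otx2, a head and eye factor, had 109 bp at percentile 3.04 in the same library. Lhx9, a gonad and brain factor, had a KO peak of 161 bp at percentile 8.36. Irx3 had 149 bp at percentile 3.79 over its start in KO replicate 2 and 459 bp at percentile 7.10 near its 3′ end in WT replicate 2. None of these peaks lay above percentile 33.2. The other calls of WT replicate 1 were peaks of 190 bp at Dlx6, 240 bp at Irx6 and 234 bp at Tlx1, a spleen factor, at percentiles of 9.02, 18.7 and 9.4. Those of WT replicate 2 were 214 bp at Meis2, 123 bp at Tlx3 and 464 bp at Pitx1, a hindlimb factor, at percentiles of 16.8, 5.43 and 6.22. Not all of the 12 gene-end regions called in all 4 libraries were stronger. Their percentile in the weakest of the 4 libraries ran from 9.38 at Lhx2 to 84.3 at Gsc. It was 12.9 at Hhex, 17.5 at Pbx2 and 18.6 at Dlx1, and at Lhx2 no library was above 18.2.

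Of the 31 members with no gene-end region in any library, 16 had a nearby region in each library, 10 in 1 to 3 libraries and 5 in none. The LIM genes held 8 of the 31 and the NK genes 6 of their 7. Lhx1, an organizer and kidney gene, had 2 regions in all 4 libraries. The region inside it (chr11:84522565-84523059) covered 408 and 380 bp in KO and 378 and 495 bp in WT, at percentiles of 76.2 or more. The other lay 3974 bp downstream, at an end of the neighbour Aatf, and covered 758 and 723 bp in KO and 621 and 684 bp in WT. Irx5 had a strong region 1248 bp beyond its lower-coordinate end (chr8:92355651-92356548), with 879 and 800 bp in KO and 785 and 898 bp in WT and percentiles of 90.4 or more. No other protein-coding gene lay under it. Nkx2-3, a factor of spleen and gut vessels, had its strong region 8101 bp downstream, with 223 and 207 bp in KO and 213 and 345 bp in WT. Ranked by the weakest of the 4 libraries, the strongest region near any of the genes, at percentiles from 98.7 to 99.6, was 7387 bp upstream of Lhx9, at an end of 2310009B15Rik, with 725 and 736 bp in KO and 738 and 728 bp in WT. Some nearby regions thus belong to other genes: 14 of the 61 regions called in all 4 libraries lay inside or within 1 kb of an end of another protein-coding gene, which in 1 case was Dlx2 beside Dlx1. The only nearby region of Tlx2 lay at an end of Pcgf1 and that of Cdx1 inside Gm52351. Without such regions, an alternative added after the data were seen, 27 members instead of 32 had a nearby region in each library.

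The 10 strongest regions called in all 4 libraries were near Lhx9, Lhx1 (2 regions), Irx5, Gsc, Pbx3, Six5, Nkx2-3 and Meis1 (2 regions), with their weakest percentile between 75.6 and 98.7. Apart from the one at Gsc, none was a gene-end region of the homeobox gene. At Meis1 both lay in the gene body, far from the start. One of them (chr11:18924736-18925362) covered 613 and 591 bp in KO and 594 bp in each WT library. The other (chr11:18969732-18970661) covered 536 and 429 bp in KO and 930 and 525 bp in WT. Far upstream of Six5, at an end of Dmpk, the region covered 324 and 507 bp in KO and 494 and 332 bp in WT. At Pbx3 the region inside the gene (chr2:34359879-34360599) covered 615 and 553 bp in KO and 640 and 695 bp in WT. Both KO libraries lay below both WT libraries there, as they did in 16.9% of all regions called in all 4 libraries.

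Regions that followed genotype were few. Near the 55 genes there were 138 regions, and 61 of them (44.2%) had a call in all 4 libraries, 12 in 3, 9 in 2 and 56 (40.6%) in 1. Of the 66584 regions within 10 kb of any protein-coding gene, 60.5% had calls from all 4 libraries, and 21.2% from 1. KO-only regions, called in both KO libraries and neither WT library, numbered 0 of the 138, where the background was 1.4%. WT-only regions, the reverse, numbered 4 (2.90%), where it was 1.87%. With 1 library left out, a single call or absence stands for its genotype. KO-only regions then numbered 12 without KO replicate 1, 9 without KO replicate 2, 1 without WT replicate 1 and 4 without WT replicate 2, and leaving out those libraries in that order gave 6, 10, 28 and 16 WT-only regions. No region was tested on its calls alone, since an exact test of 2 libraries against 2 cannot go below a two-sided p of 0.333.

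The 4 WT-only regions lay near Emx2, Irx2, Nkx6-2 and Otx1. Emx2, a gene of cortex and kidney patterning, had the strongest, a region of 131 bp inside the gene (chr19:59460775-59460905) with 120 bp in each WT library and percentiles of 47.3 or more. At Nkx6-2, a gene of myelin-forming cells, the region of 234 bp lay 7631 bp upstream and covered 151 and 218 bp in WT. At Irx2 the region lay 5570 bp downstream and covered 132 and 243 bp in WT. The Otx1 region (chr11:22001953-22002354) lay 302 bp beyond the higher-coordinate end and covered 402 and 181 bp in WT. It was the only genotype-specific region within 1 kb of an end, at a gene whose opposite end was called in every library. The weakest percentile of each was between 7.12 and 47.3.

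Calls in single libraries were common near the homeobox genes. KO replicate 1 alone called 8 of the 138 regions (5.80%), against 4.09% of all regions near genes, and KO replicate 2 alone 12 (8.70%), against 5.78%. WT replicate 1 alone called 12 (8.70%), against 4.58%, and WT replicate 2 alone 24 (17.4%), against 6.72%. The share called once was thus above that near all genes in each of the 4 libraries. Of the 77 regions called in 1 to 3 libraries, 20 (26.0%) were called in KO libraries alone and 40 (51.9%) in WT libraries alone. Over all regions near genes these shares were 28.6% and 33.3%. Msx1, Msx2 and Irx4, patterning genes of limb, skull and heart, each had a single nearby region, from WT replicate 2. Their percentiles ran from 6.67 to 13.9.

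**Figure D4:**
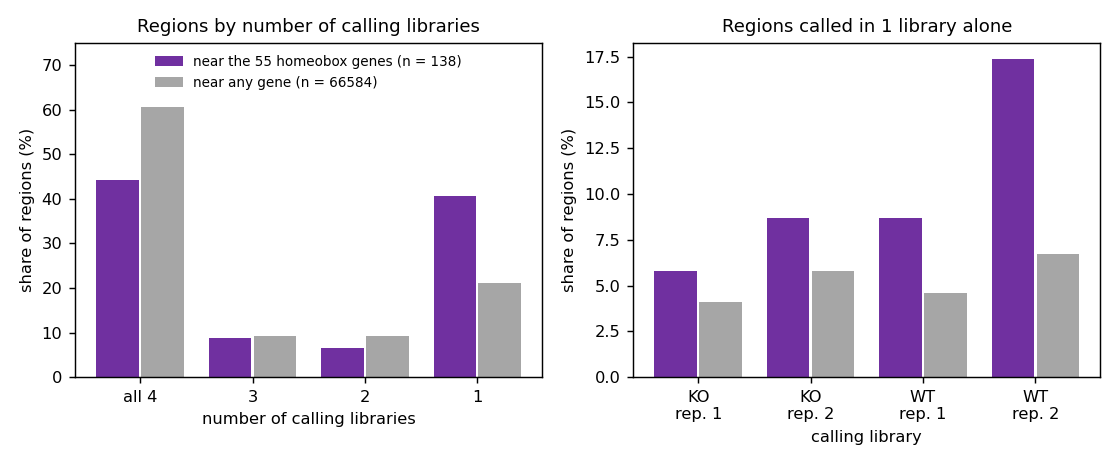
Shares of regions, in percent, near the 55 homeobox genes (purple, 138 regions) and near any protein-coding gene (grey, 66584 regions). The left panel groups regions by the number of calling libraries and the right panel gives those called in 1 library alone. Regions called once make up 40.6% near the homeobox genes and 21.2% near any gene, and WT replicate 2 alone called 17.4%.

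Per library, gene-end regions were found at 12 and 14 homeobox genes in KO and at 16 and 19 in WT. The means were 13.0 ± 1.41 in KO and 17.5 ± 2.12 in WT (SD, n = 2 each). The groups did not overlap, and the difference of -4.5 genes had a two-sided exact permutation p of 0.333, the smallest that 2 libraries against 2 allow. Over all protein-coding genes 12490 and 12667 had a gene-end region in KO and 12545 and 12719 in WT, and these overlapped. Nearby regions numbered 80 and 84 in KO and 87 and 103 in WT, with means of 82.0 ± 2.83 in KO and 95.0 ± 11.3 in WT (SD, n = 2 each, exact permutation p = 0.333). Those near any protein-coding gene numbered 49455 and 52272 in KO and 50753 and 53283 in WT, which overlapped. Peaks in the regions near the homeobox genes covered 33.6 and 36.7 kb in KO and 36.7 and 40.8 kb in WT, so that KO replicate 2 and WT replicate 1 were level to 3 digits. The mean covered width per such region was 420 and 437 bp in KO and 422 and 397 bp in WT. Near any gene the peaks covered 21.0 and 23.3 Mb in KO and 21.6 and 23.1 Mb in WT, which overlapped. For gene-end regions, nearby regions and covered bases at the homeobox genes, WT replicate 2, with the longest list, was highest. KO replicate 1, with the shortest list, was lowest in each of these. In mean covered width per region, WT replicate 2 was lowest and KO replicate 2 highest. When each list was cut to the 67055 peaks of the shortest by their q-value, an alternative added after the data were seen, the gene-end counts were 12 and 12 in KO and 16 and 14 in WT, a difference of -3. Nearby regions then numbered 80 and 77 in KO and 82 and 85 in WT, a difference of -5 instead of -13. With the weakest 25% of each list removed the difference in genes with a gene-end region was gone, at 10 and 9 genes in KO and 10 and 9 in WT. With the weakest 50% removed it was -1, at 6 and 3 genes in KO and 6 and 5 in WT. With a −log10 q of at least 3 it was -0.5, at 10 and 10 in KO and 11 and 10 in WT. Without WT replicate 2 it was -3, and the difference in nearby regions was -5 instead of -13. Without WT replicate 1 the difference in nearby regions was -21.

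The other developmental lists had the same order between the genotypes. Of 116 further non-Hox homeobox genes, 41 and 42 had a gene-end region in KO and 48 and 47 in WT, and of 39 Hox genes, 5 and 5 in KO and 7 and 7 in WT. Of 45 Sox, Pax and T-box genes, 13 and 12 had one in KO and 16 and 14 in WT. In that list 1 gene, Tbx2, was called at an end in both WT libraries and neither KO library (background 0.315%). Each list thus had both KO libraries below both WT libraries, with an exact permutation p of 0.333 in each case. With lists of equal length the counts were 41 and 37 in KO against 45 and 44 in WT for the further homeobox genes. The Hox genes then stood at 5 and 5 in KO and 6 and 6 in WT. The Sox, Pax and T-box genes overlapped, at 13 and 11 in KO and 12 and 14 in WT. All protein-coding genes had the opposite order at equal length, with 12487 and 12464 in KO and 12428 and 12435 in WT. The lists are compared over the same 4 libraries, so that their agreement is not independent. The share called in each of the 4 libraries was 21.8% for the 55 genes, 30.2% for the further homeobox genes, 12.8% for Hox genes and 22.2% for Sox, Pax and T-box genes.

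**Figure D5:**
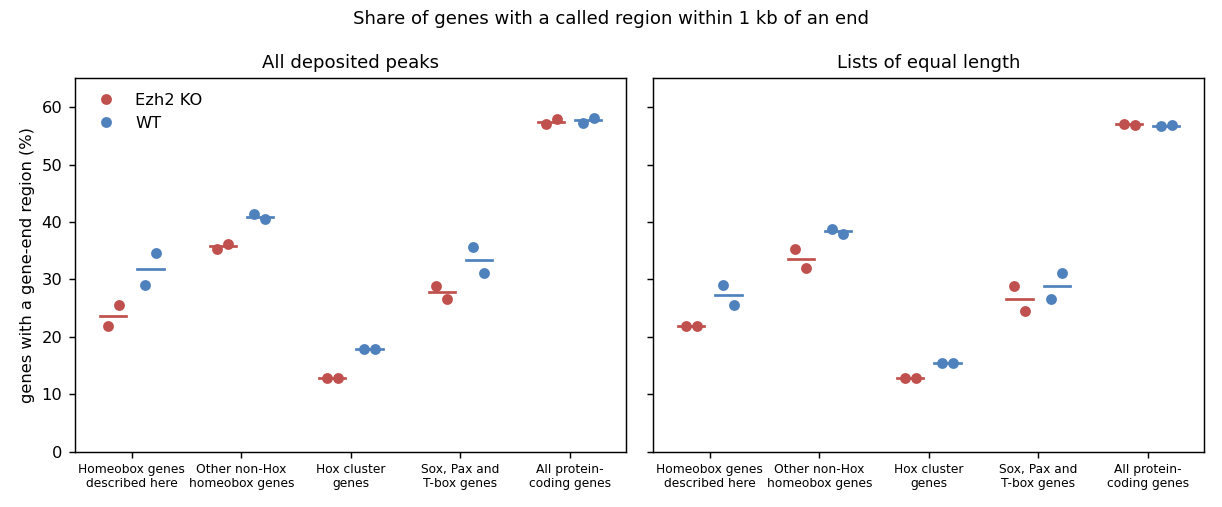
Share of genes, in percent, with a called region within 1 kb of an end in each library, for the 55 homeobox genes, 3 other lists and all protein-coding genes. Red points are the 2 KO libraries, blue points the 2 WT libraries and lines the means, with all deposited peaks on the left and each list cut to 67055 peaks on the right. KO libraries lie below WT libraries in all 4 developmental lists on the left and in all but the Sox, Pax and T-box list on the right.

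The width of shared regions gave a test over the whole genome. For the 53062 regions called in all 4 libraries, the log2 of the covered bases was compared between genotypes with limma. None passed an adjusted p of 0.05 in either direction (background 0%), and 3138 (5.91%) had an unadjusted p under 0.05. Of the 61 regions near the homeobox genes, 3 did so and 0 passed after adjustment. The median log2 ratio of KO over WT was 0.01 over the 61 and 0.01 over all regions, and 34 of the 61 were wider in KO, or 29 without centring or with quantile normalization. Both KO libraries lay above both WT libraries in 12 of the 61 and below them in 7, where the background was 16.2% and 16.9%.

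The 3 regions with the smallest p near the homeobox genes lay outside gene ends and went in both directions. Near Cdx2, an intestinal and trophoblast factor, a region 1349 bp downstream (chr5:147299066-147299551) covered 188 and 145 bp in KO and 270 and 450 bp in WT. Its log2 ratio was -1.07 ± 0.33 (SE, limma, adjusted p = 0.778). A region 1536 bp upstream of Nkx6-2 (chr7:139584333-139585014) covered 469 and 621 bp in KO and 154 and 330 bp in WT. Its log2 ratio was 1.27 ± 0.40 (SE, limma, adjusted p = 0.783). Inside Lhx4, a pituitary factor, a region of 227 bp covered 227 and 196 bp in KO and 139 and 148 bp in WT, with a log2 ratio of 0.57 ± 0.20 (SE, limma, adjusted p = 0.820). The genotypes did not overlap in any of the 3, but choosing regions by the smallest p favours this. None of the differences passed over all shared regions.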

How the data were processed

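ATAC-seq was run on 2 Ezh2 KO and 2 WT libraries as paired 150 bp reads. The submitters' processing notes name fastp, Bowtie2, MACS2 and mm10. Versions, read shifting and peak filters are not given in these sources. The authors deposited 1 broad peak list for each library, with no pooling. Each deposited list gives a score from the −log10 q, a fold ratio over the local background, and −log10 p-values and q-values. Between 261 and 322 peak numbers were skipped per list, and the largest q was 0.0497.

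Lists were merged wherever peaks overlapped by at least 1 bp, with Python 3.11.15. Gene positions came from RefSeq GRCm38.p6, and strand and promoters from its promoter table. Libraries were grouped by title. Log2 covered width was centred on each library's median and tested with limma 3.58.1 (R 4.3.3, Benjamini-Hochberg over all shared regions), after a check on simulated data. The simulated widths had the same SD in every region, so the check does not show how small a change could be found in the real widths. Library totals were tested by exact permutation. No read counts are given, so no depth or counting interval could be had. The members and lists were chosen with earlier results of these data known. Named were genes called at an end in any library, regions of 1 genotype, the 10 strongest shared regions and the 3 with the smallest limma p.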

Additional observations from a re-analysis of the deposited data

How the results depend on the processing

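Of 15 alternatives, 12 left the count of genes called at an end in each library within 1.5 times of 12. It was 2 without the weakest 50% of each list, 28 with a window of 5 kb, and 7 of 42 genes at the 5′ end alone. The weakest 50% removed also gave 48 genes with no gene-end region, 19 with a nearby region in each library, 23 nearby regions in all 4 libraries and 2 WT-only regions. With 5 kb, 9 genes had no gene-end region. The gene body alone gave 16 genes with a region in each library, 27 regions in all 4 libraries and 1 WT-only region, and a window of 50 kb gave 154 regions in all 4 libraries, 2 KO-only and 7 WT-only. KO-only regions numbered 3 when peaks had to cover 50% of a region and 1 with a −log10 q of at least 3, which left 2 WT-only regions. Leaving out 1 library gave from 1 to 12 KO-only and from 6 to 28 WT-only regions.

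The difference in genes with a gene-end region was 0 without the weakest 25% of each list, which also left 2 WT-only regions. It ran from -6.5 to -0.5 in the other 12 alternatives. Within that range it was -1 without the weakest 50% of each list and -0.5 with a −log10 q of at least 3. The difference in nearby regions was negative in all 13, from -21 to -3.5. No shared region passed in limma with the replicate number as a replicate block (0 calls, 2925 at an unadjusted p under 0.05, 2 near the homeobox genes), and none in the other 7 alternatives. In centred width, same-numbered libraries did not deviate together region by region (correlation 0.0105 over 53062 regions). Centring removes any shift of a whole library, so this value cannot tell whether same-numbered libraries were prepared together. Replicate 2 had more peaks than replicate 1 in both genotypes (71111 against 67055 in KO, 72887 against 69210 in WT). Whether replicates of 1 number form a pair was not tested. The files give no depth, and its part in the weak calls was not tested.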

Other observations

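Among 116 further non-Hox homeobox genes, all 4 libraries called an end of 35 and no library an end of 61. The 5 with the widest such regions were Tgif1, a corepressor of TGF-beta signalling, with 2273 and 2006 covered bp in KO and 2391 and 2344 bp in WT, Adnp2, the ceramide synthase genes Cers5 and Cers4, and Pknox1, a TALE relative of Meis. At Cers4 the replicates differed more than the genotypes, with 159 and 1322 bp in KO and 167 and 807 bp in WT. Of the 116, 1 gene, the oocyte factor Nobox, was called at an end in both KO libraries and neither WT library (background 0.297%). The reverse held for 4 genes, Bsx, Nkx2-4, Nkx6-3 and Onecut1 (background 0.315%). At Bsx the 2 WT libraries called separate regions. Of the 171 non-Hox homeobox genes together, 53 and 56 had a gene-end region in KO and 64 and 66 in WT. The difference was -10.5 genes with an exact permutation p of 0.333, the smallest possible, and it was -8.5 with lists of equal length. All protein-coding genes stood at 12490 and 12667 in KO and 12545 and 12719 in WT, which overlapped. The 171 include the 55 members, whose own difference was 0 without the weakest 25% of each list. That setting was not run for the 171, so the part of weak peaks in their difference was not tested.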
